A study of Mus musculus with 11 samples.

Results

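Retinal ganglion cells are the first neurons born in the mouse retina and the only ones whose axons leave the eye. A progenitor that stops dividing under the bHLH factor Atoh7 switches on the factors Isl1 and Pou4f2, which together maintain ganglion cell fate, and then the RNA-binding protein Rbpms, a general marker of ganglion cells. Newborn neurons of many types also make proteins for axon growth, microtubules, neurofilaments and vesicle release, in amounts that differ between types. Of 35 genes chosen by name to cover both layers, 34 were present among the 13498 genes of the count table, and Eomes, a ganglion cell T-box factor, was not analysed here. The 34 were divided into 4 ganglion cell genes (Rbpms, Isl1, Pou4f1 and Pou4f2) and 30 general neuron genes. The general group is not neutral between neuron types, as it holds genes such as Sncg and Thy1 that are also used as ganglion cell markers. All 34 were among the 13292 genes that passed the filter on low counts.

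RNA came from dissected retinas of NMRI mice at E13.5, with a pair of retinas in each of 11 libraries. All 4 groups carried floxed Six3 alleles (Six3F/F), and pregnant dams were given tamoxifen on E10.5 and again on E11.5. The WT group (3 libraries) was Six3F/F with intact Six6 and no Cre, and the Six3KO group (3) added CAGGCre-ERTM, a broadly expressed Cre recombinase that tamoxifen activates. The Six6KO group (2, after the submitters removed a library) was Six3F/F with both Six6 alleles null from the germ line and no Cre, and the DKO group (3) was Six3F/F; CAGGCre-ERTM; Six6-/-. Cre was thus present in both groups only in DKO against Six3KO, and loss of Six3 cannot be told apart from an effect of Cre in the other comparisons with Cre on one side. Nothing in the labels says whether the libraries of a group came from separate litters, so p-values measure the spread between these libraries.

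Libraries held 7807744 to 16403191 reads in genes, and values are given in the order rh016, rh023, rh024 (WT), rh006, rh012, rh026 (Six3KO), rh007, rh020 (Six6KO) and rh010, rh011, rh021 (DKO). Levels are CPM, counts scaled to library size with TMM factors, and differences are log2 fold changes ± standard error from edgeR's quasi-likelihood test, with p-values adjusted over all genes tested (Benjamini-Hochberg) and a threshold of 0.05. Six3 lay at 164 to 299 CPM in WT against 30.3 to 75.9 CPM in Six3KO and 56.2 to 98.2 CPM in DKO. Six6 lay at 225 to 340 CPM in WT, 76.8 and 131 CPM in Six6KO and 52.8 to 99.8 CPM in DKO, so no library went against its label. The retinal progenitor genes Pax6 and Rax were present in every library (at least 511 and 98.8 CPM). The markers of neighbouring tissues varied widely: 15 periocular mesenchyme genes summed to 420 to 2346 CPM in WT, 470 to 4351 CPM in Six3KO, 1811 to 2616 CPM in Six6KO and 111 to 180 CPM in DKO, and 12 lens genes ranged from 8.01 to 22399 CPM across libraries. On the first principal component (45.9% of the variance), rh026 of Six3KO and rh020 of Six6KO stood at one end. Results that rest on them are given with and without them. No DKO library reached the mesenchyme level of any other library. Fits with a mesenchyme score as a covariate therefore extrapolate in comparisons with DKO.

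Rbpms was the 1 member of 34 that passed the threshold in DKO against WT, with a lower level in DKO. Its level was 46.7, 47.3 and 39.0 CPM in the WT libraries and 10.6, 14.3 and 13.9 CPM in the DKO libraries. The groups lay far apart, with the highest DKO library well under the lowest WT library. The log2 fold change was -1.78 ± 0.17 (3.43 fold lower; edgeR adjusted p = 0.00243), and of all genes tested 1.29% passed in this comparison, 0.639% in the downward direction. In bulk retina, fewer ganglion cells and less Rbpms RNA per cell cannot be told apart. Periocular mesenchyme markers were also lowest in DKO (111 to 180 CPM, against 420 CPM or more in each other group). The part of other tissues in the Rbpms level was not tested. The call held in all 13 alternative analyses, among them each DKO and WT library left out in turn, with values between -1.86 and -1.65. They include the fit with the mesenchyme covariate, which extrapolates for DKO. Rbpms lies on chromosome 8 (33782643 to 33929863, minus strand, GRCm38), and no exon of another annotated gene overlaps its exons.

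Both single mutants held more Rbpms than any DKO library. Six3KO libraries held 36.1, 32.1 and 42.1 CPM, and the 2 Six6KO libraries 37.6 and 29.3 CPM. Six3KO overlapped WT, while both Six6KO libraries lay under the lowest WT library, rh007 narrowly and rh020 clearly, as did 5.85% of all genes. The differences from WT were -0.27 ± 0.16 for Six3KO (edgeR unadjusted p = 0.126, adjusted p = 1) and -0.41 ± 0.18 for Six6KO (unadjusted p = 0.0518, adjusted p = 0.991), and neither passed.

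Against the single mutants Rbpms was again the 1 member called. In DKO against Six3KO, with Cre on both sides, it fell by 1.51 ± 0.17 on the log2 scale (2.84 fold lower; edgeR adjusted p = 0.00607), where 0.587% of all genes passed, 0.256% downward. That call held in all 13 alternatives (-1.62 to -1.38), among them the fit with the mesenchyme covariate, which extrapolates for DKO. In DKO against Six6KO the log2 fold change was -1.37 ± 0.18 (edgeR adjusted p = 0.0297), where 0.233% of all genes passed, 0.0677% downward. This second call rests on few libraries: the size stayed between -1.52 and -1.19, but the call was lost in 6 of 12 alternatives. It was lost without Six6KO library rh007 (adjusted p = 0.135) or rh020 (0.143), without DKO library rh010 (0.15) or rh011 (0.144), without rh020 and rh026 together (0.0821), and with a mesenchyme score as a covariate (0.179).

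The DKO fall of Rbpms exceeded the sum of the 2 single differences by 1.10 ± 0.24 on the log2 scale, a departure that edgeR did not call over all genes (unadjusted p = 0.00124, adjusted p = 0.336). The same test called 0 of 34 members and 0% of all genes. At an unadjusted p under 0.05 it had 2 members on the lower side, Rbpms and Ebf2 (6.07% of all genes), and 1 on the higher side, Elavl2 (3.92%). Estimates were below 0 for 17 of 34 members and 51.2% of all genes, but that split turned on single libraries and on the covariate: 3 of 34 were below 0 without Six6KO rh007, 29 without Six6KO rh020, 30 without rh026 and rh020, and 32 (median -0.96) with the mesenchyme covariate. DESeq2 called Rbpms alone among the members (-1.11, adjusted p = 0.014).

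**Figure D1:**
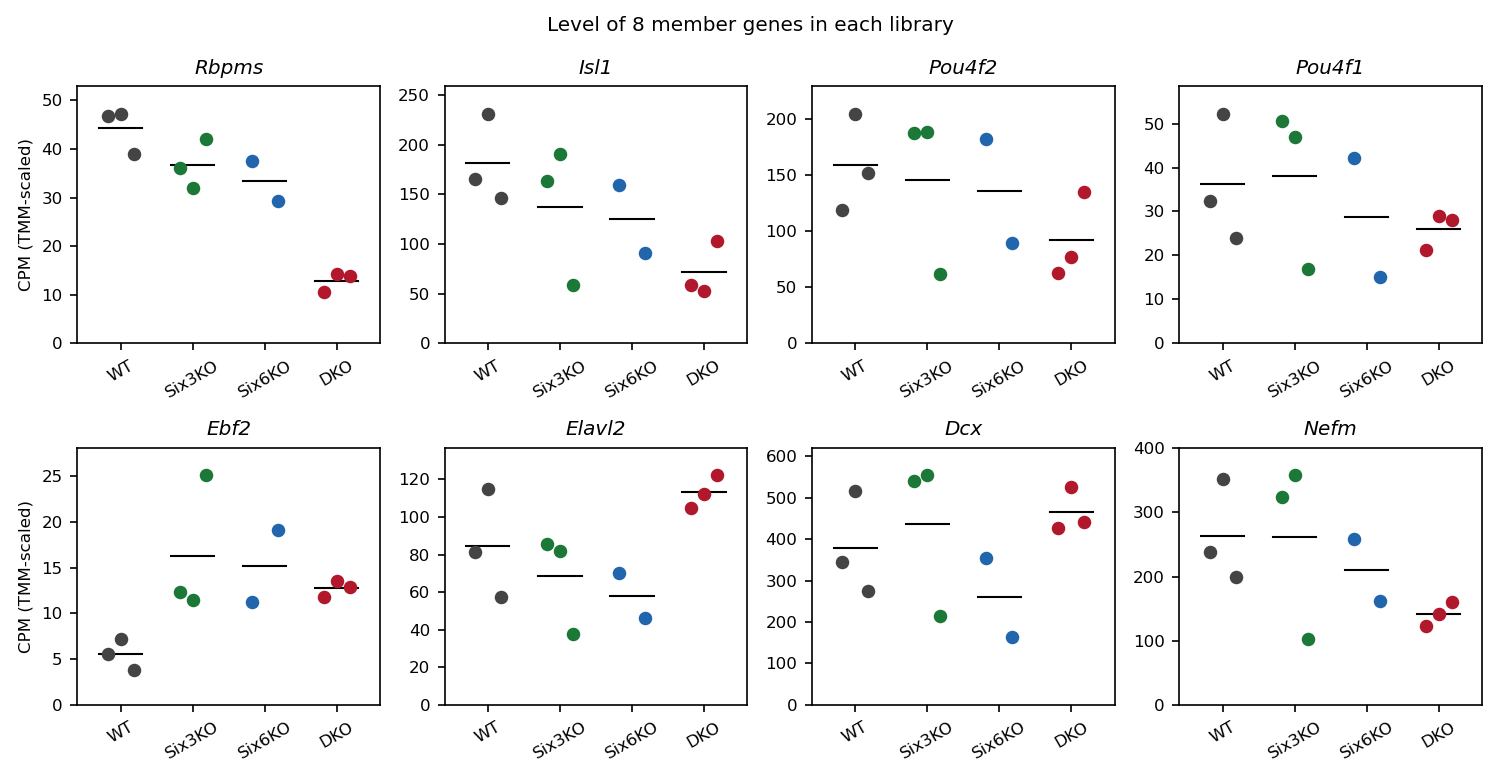
Level of 8 genes (vertical axes, CPM, starting at 0) in each library (points) of the 4 groups, with the group mean (black line). Rbpms lies at 10.6 to 14.3 CPM in DKO and at 29.3 CPM or more in every other library, while Isl1, Pou4f2, Pou4f1 and Nefm also reach low values in Six3KO library rh026, and Ebf2 is lowest in WT.

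Rbpms moved little within the groups outside DKO. Its highest WT library was 1.21 times its lowest, the narrowest range of the 33 members with reads in every library of the group, whose median ratio was 1.95. It was also the narrowest in Six3KO (1.31, against a median of 2.73) and in the pair of Six6KO libraries (1.28, against 1.89). Within DKO its ratio of 1.36 was close to the median of 1.34. With the mesenchyme score as a covariate, the difference between DKO and WT was -1.66 (edgeR adjusted p = 0.014). The score does not overlap between DKO and the other groups, so this fit extrapolates and cannot part mesenchyme content from genotype.

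The transcription factors of ganglion cells had lower estimates in DKO than in WT, and none passed. Isl1, a LIM homeodomain factor on chromosome 13 (116298281 to 116309689, minus strand), stood at 165, 231 and 147 CPM in WT and at 59.0, 52.8 and 103 CPM in DKO. The groups did not overlap, with DKO library rh021 closest to WT. The difference was -1.34 ± 0.44 (edgeR unadjusted p = 0.0131, adjusted p = 0.209). DESeq2 (adjusted p = 0.0266) and the fit with the mesenchyme covariate, which extrapolates for DKO (-2.14, adjusted p = 0.0491), called it. Of the 8 other libraries, 2 lay within the DKO range of Isl1: Six3KO held 163, 190 and 58.7 CPM, the last in rh026, and Six6KO held 160 and 91.1 CPM, the last in rh020.

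Pou4f2, a POU-domain factor that acts with Isl1 to keep ganglion cells alive and extending axons, stood at 119, 205 and 152 CPM in WT and 63.1, 77.3 and 135 CPM in DKO. The highest DKO library, rh021, lay within WT, and the difference was -0.79 ± 0.46 (edgeR adjusted p = 0.561). Its Six3KO libraries held 188, 188 and 62.1 CPM and its Six6KO libraries 183 and 89.5 CPM. Pou4f1, a related factor of many ganglion cells, overlapped more, with 32.4, 52.3 and 24.0 CPM in WT against 21.2, 29.1 and 28.0 CPM in DKO (-0.47 ± 0.48, edgeR adjusted p = 0.796). Its lowest levels were in Six6KO library rh020 and Six3KO library rh026, at 15.2 and 16.8 CPM. Pou4f2 lies on chromosome 8 (78433010 to 78436645) and Pou4f1 on chromosome 14 (104461676 to 104467999), both on the minus strand.

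Among the 30 general neuron genes edgeR called 0 in DKO against WT. The 27 with estimates below 0 were joined by 3 above it, Ebf2, Elavl2 and Dcx. At an unadjusted p under 0.05 there were 2 lower, Myt1l and Thy1, and 1 higher, Ebf2, beside 7.53% lower and 5.47% higher among all genes. Thy1 rests on WT library rh016, which held 65 of its 68 WT reads and without which it did not pass the filter. Of these members, Ebf2 was the 1 that DESeq2 called (adjusted p = 0.04). The median log2 fold change was -0.35 over these 30 and -1.06 over the 4 ganglion cell genes, beside 0.00 over all genes tested. Of all 34 members, 31 had estimates below 0, against 50.8% of genes tested. In 9 of 34, every DKO library lay below every WT library, against 8.46% of genes tested. These were Rbpms, Isl1, Myt1l, Ebf3, Scrt1, Nhlh2, Mapt, Crmp1 and Nefm, and Ebf2 was the 1 member above WT without overlap (9.03% of genes tested).

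The level of this set also varied widely between libraries of the same genotype. The 30 general neuron genes summed to 7437, 10836 and 6498 CPM in WT, 9684, 10274 and 4339 CPM in Six3KO, 8567 and 4373 CPM in Six6KO, and 5886, 6912 and 6920 CPM in DKO. The DKO libraries thus sat within the range of the other genotypes, above Six3KO library rh026 and Six6KO library rh020. In those 2 libraries, 30 and 29 of the 34 members lay below every WT library, more than the 21, 11 and 11 members of DKO libraries rh010, rh011 and rh021. Six3KO libraries rh006 and rh012 had 1 such member each. The same libraries rh026 and rh020 held 17742 and 9819 CPM of lens markers and 4351 and 1811 CPM of mesenchyme markers. Six3KO library rh012 held more lens signal still, 22399 CPM, with 470 CPM of mesenchyme markers and high levels of the neuron genes. The part of other tissues in the low neuron values was not tested.

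WT itself was spread widely. In rh023, 1 of 34 members lay below the WT mean, and in rh024 all 34 did. In DKO libraries rh010, rh011 and rh021, 31, 29 and 27 members lay below it. Leaving out rh023 brought the members' median in DKO against WT from -0.47 to -0.19, with 24 of 34 below 0, and leaving out rh024 brought it to -0.68. With the mesenchyme score as a covariate it was -1.15, with 33 of 34 below 0. Relative to the WT mean, that score was -3.51 to -2.65 in DKO and -2.29 or more in every other library. The score thus does not overlap between DKO and the other groups, and this fit cannot part the 2. DKO libraries were the most alike, with a median ratio of highest to lowest of 1.34 over the 33 members.

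**Figure D2:**
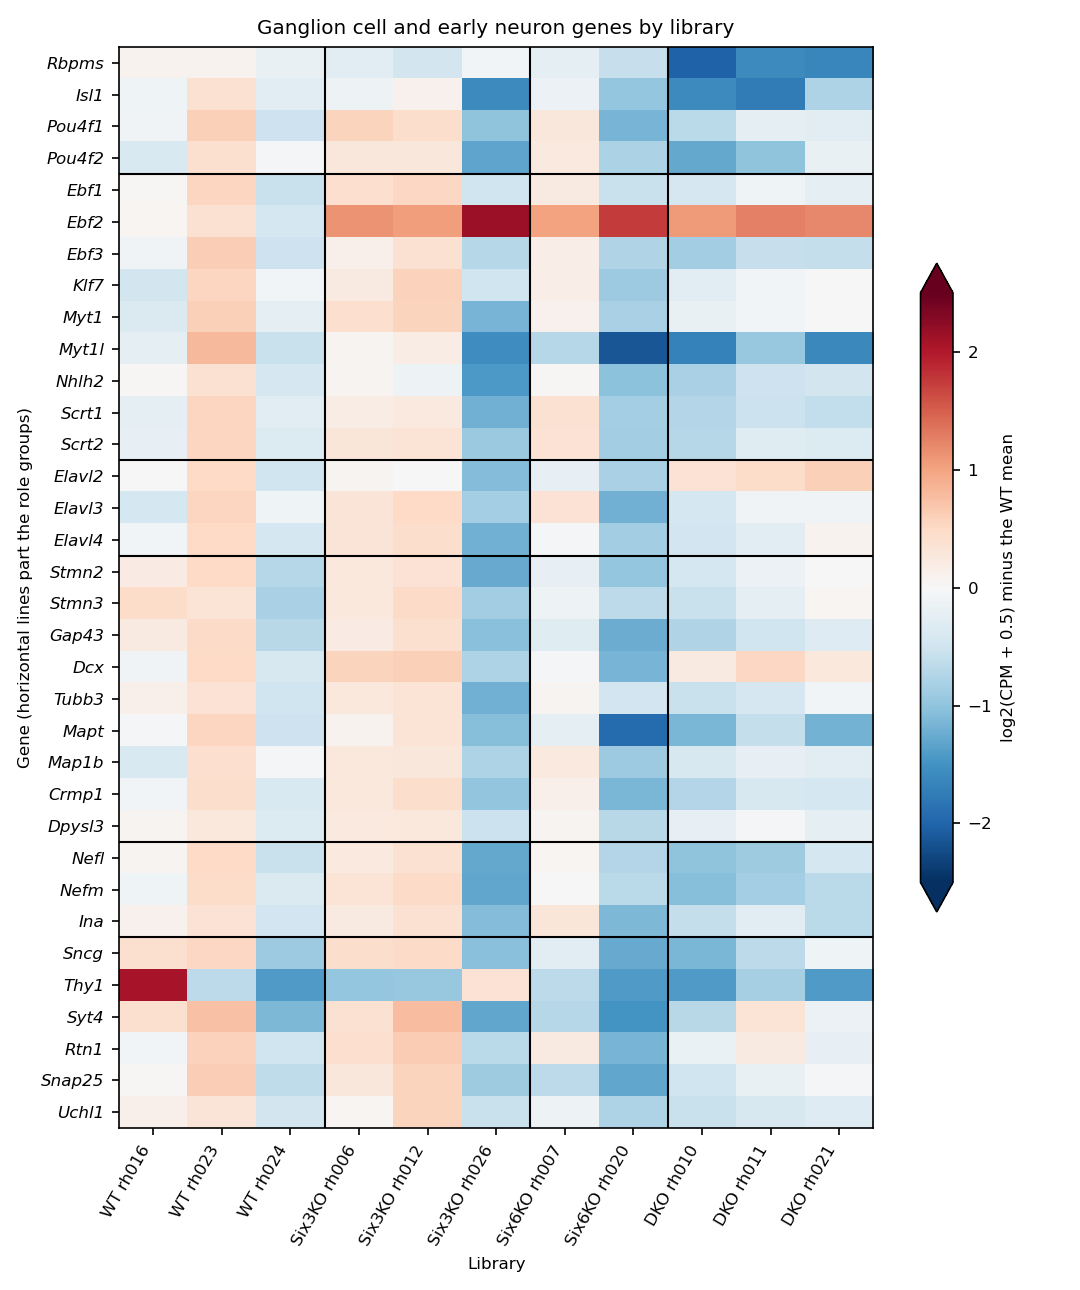
Level of the 34 members (rows, by role group) in each library (columns, by genotype), as log2(CPM + 0.5) minus the WT mean (colour, ending at 2.5 on either side). Most rows are pale red in WT rh023 and blue in Six3KO rh026 and Six6KO rh020, whereas the Rbpms row is dark blue in the 3 DKO columns and near white in rh026.

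When each member was set against the mean log2 level of the general neuron genes in the same library, and that value against its WT mean, Rbpms stayed apart. It lay at -1.46, -1.37 and -1.36 in DKO, between -0.37 and 0.36 in WT, between -0.84 and 0.76 in Six3KO, and at -0.22 and 0.38 in Six6KO. On this scale 2 of 34 members, Rbpms and Ebf3, were lower in every DKO library than in all 8 others, against 1.17% of genes tested, but Ebf3 only narrowly (-0.34 to -0.30 in DKO, -0.17 or more elsewhere). Isl1 (-1.50 to -0.48 in DKO) overlapped Six3KO (-0.77 to -0.28), and Pou4f1 and Pou4f2 overlapped WT. On the other side, 2 members lay above all others in DKO, Elavl2 and Dcx, against 1.88% of genes tested. Outside DKO the relative Rbpms value was lowest in rh012, rh006 and rh023, with mesenchyme markers at 470, 1399 and 420 CPM. It was highest in rh026, rh020 and rh024, at 4351, 1811 and 2346 CPM. Between them lay rh016 (0.01) and rh007 (-0.22), at 2242 and 2616 CPM, and DKO held 111 to 180 CPM. The part of other tissues in this value was not tested.

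**Figure D3:**
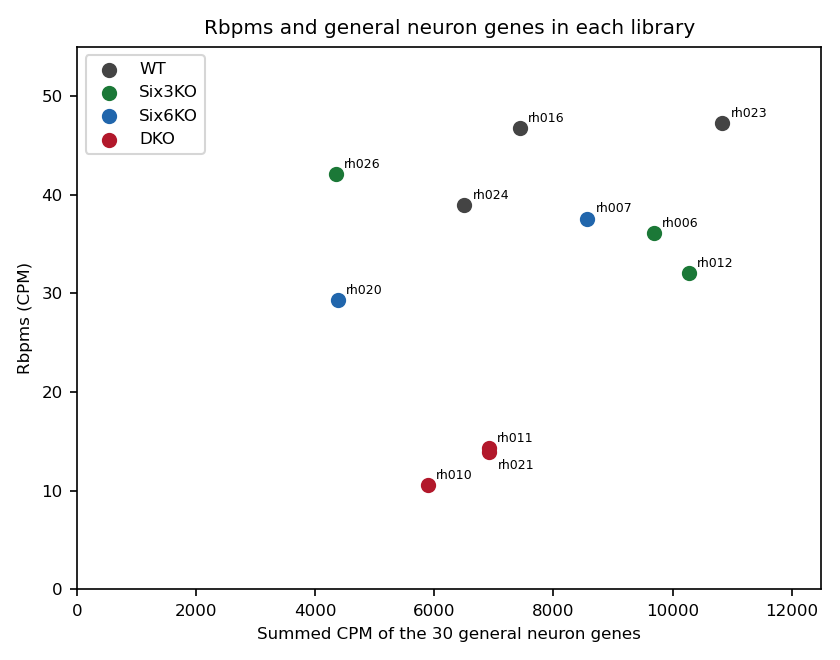
Rbpms level (vertical axis, CPM) against the summed level of the 30 general neuron genes (horizontal axis, CPM) in each of the 11 libraries (points, coloured by genotype). The 3 DKO libraries lie at 10.6 to 14.3 CPM of Rbpms with 5886 to 6920 CPM of general neuron genes, while rh026 and rh020 keep 42.1 and 29.3 CPM of Rbpms with fewer neuron reads.

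The early neuron transcription factors included Ebf2, the 1 member above WT without overlap in each mutant group. EBF proteins are helix-loop-helix factors that promote neuronal differentiation, in the retina with a bias to ganglion and other inner neurons. Ebf2 held 5.55, 7.17 and 3.82 CPM in WT and 11.8, 13.5001 and 12.9 CPM in DKO. It was just as high in the single mutants, with 12.3, 11.52 and 25.1 CPM in Six3KO and 11.3 and 19.1 CPM in Six6KO. All 8 mutant libraries thus lay above all 3 WT libraries. Taken alone, 3.1% of all genes were so placed for Six3KO, 7.2% for Six6KO and 9.03% for DKO. The share of genes so placed in all 3 groups at once was not computed. The differences from the shared WT libraries were 1.20 ± 0.35 in DKO, 1.56 ± 0.36 in Six3KO and 1.46 ± 0.39 in Six6KO, with edgeR unadjusted p = 0.007, 0.00148 and 0.00376, and none passed over all genes (adjusted p = 0.148, 1 and 0.991). DESeq2 called Ebf2 in Six3KO (adjusted p = 0.0423), and edgeR called it in DKO without rh026 and rh020 (1.20, adjusted p = 0.0446). Its highest levels were in rh026 and rh020, and the part of other tissues in its level was not tested. Ebf2 lies on chromosome 14 (67233292 to 67430918, plus strand), and part of its exons overlaps Gm10860 on the other strand, from which its reads cannot be told apart without a stated strand setting.

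The paralogs Ebf1 and Ebf3 did not share that pattern. Their estimates in DKO against WT were -0.32 ± 0.34 and -0.75 ± 0.36 (edgeR adjusted p = 0.814 and 0.427). Ebf3 is far more abundant than Ebf2, with 217, 355 and 161 CPM in WT and 126, 155 and 153 CPM in DKO. Myt1l, a zinc finger repressor of non-neuronal genes, held 24.0, 50.3 and 19.1 CPM in WT and 8.52, 14.6 and 8.96 CPM in DKO (-1.54 ± 0.56, edgeR adjusted p = 0.261). It was low in Six6KO too, at 17.2 and 6.10 CPM, both under WT. Its relative Myt1, a factor of newborn neurons, differed by -0.14 ± 0.43. The remaining factors, Nhlh2, Scrt1, Scrt2 and Klf7, had estimates between -0.69 and -0.18.

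Of the 3 genes for neuronal RNA-binding proteins of the ELAV family, which stabilise and splice neuronal transcripts, none passed in DKO against WT. Elavl2 (chromosome 4, 91250763 to 91400785, minus strand) held 105, 112 and 122 CPM in DKO. That was above all Six3KO libraries (85.4, 82.0 and 37.9 CPM; 13.4% of all genes were so placed) and Six6KO libraries (70.1 and 46.2 CPM), but not above WT (81.1, 115 and 57.2 CPM). Its estimate was 0.42 ± 0.33 against WT, 0.72 ± 0.33 against Six3KO and 0.96 ± 0.38 against Six6KO (edgeR adjusted p = 0.697, 0.39 and 0.287). The fit on DKO and Six6KO alone called it (0.97, adjusted p = 0.0403), and with the mesenchyme covariate the sign against WT turned (-0.20). Elavl4 and Elavl3, which mark differentiating neurons including ganglion cells, were at -0.26 ± 0.42 and -0.25 ± 0.44 against WT. Elavl4 held 325, 486 and 254 CPM in WT and 245, 282 and 362 CPM in DKO, and without WT rh023 its estimate was 0.033.

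Growth cone and microtubule genes showed no call, with estimates of -1.02 to 0.29 in DKO against WT. Mapt, which encodes the microtubule protein tau, held 122, 181 and 86.5 CPM in WT and 55.9, 81.7 and 54.5 CPM in DKO (-1.02 ± 0.48, edgeR adjusted p = 0.423), with no overlap. It was low as well in Six3KO rh026 (59.1 CPM) and Six6KO rh020 (32.4 CPM). Gap43, a growth cone protein of extending axons, held 241, 287 and 127 CPM in WT and 122, 147 and 165 CPM in DKO (-0.60 ± 0.41, adjusted p = 0.647). Dcx, a microtubule protein of migrating neurons chosen here after its values were seen, went the other way, with 426, 525 and 441 CPM in DKO against 345, 516 and 276 CPM in WT (0.29 ± 0.40, edgeR adjusted p = 0.873). The abundant Tubb3 and Map1b, beta-tubulin and a microtubule-associated protein of axons, were at -0.37 ± 0.38 and -0.32 ± 0.35. Stmn2, Stmn3, Crmp1 and Dpysl3 lay between -0.55 and -0.18.

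The neurofilament subunit genes had the lowest median of the general neuron groups in DKO, -0.82 over 3 genes. Nefm held 239, 353 and 199 CPM in WT and 123, 141 and 160 CPM in DKO (-0.90 ± 0.41, edgeR adjusted p = 0.407), and the groups did not overlap. Nefl held 216, 290 and 140 CPM in WT and 103, 111 and 151 CPM in DKO (-0.82 ± 0.43, adjusted p = 0.484). Exons of the neighbours Nefl and Nefm share bases on opposite strands of chromosome 14, so part of their reads may be counted for either or neither. Ina, which forms filaments with them in young neurons, was at -0.54 ± 0.43. Six3KO rh026 was lower than any DKO library for both Nefl (84.2 CPM) and Nefm (104 CPM).

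Among the other neuron genes, Thy1, a surface protein of mature ganglion cells, was barely present at this age. It had 68 reads in WT, 65 of them in rh016, and 3 in DKO. The WT to DKO ratio was 28.5, with an exact 95% interval of 9.36 to 142 that covers counting error only, and with rh016 left out 3 WT reads remain. Uchl1, a neuronal ubiquitin hydrolase, held 133, 151 and 88.1 CPM in WT and 82.5, 91.5 and 97.0 CPM in DKO (-0.46 ± 0.29, edgeR adjusted p = 0.608), and its exons overlap those of Uchl1os on the other strand. Sncg, a synuclein abundant in ganglion cells, was at -0.71 ± 0.50 (adjusted p = 0.66). The vesicle protein Syt4, the release protein Snap25 and the reticulon Rtn1 lay between -0.33 and -0.11.

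**Figure D4:**
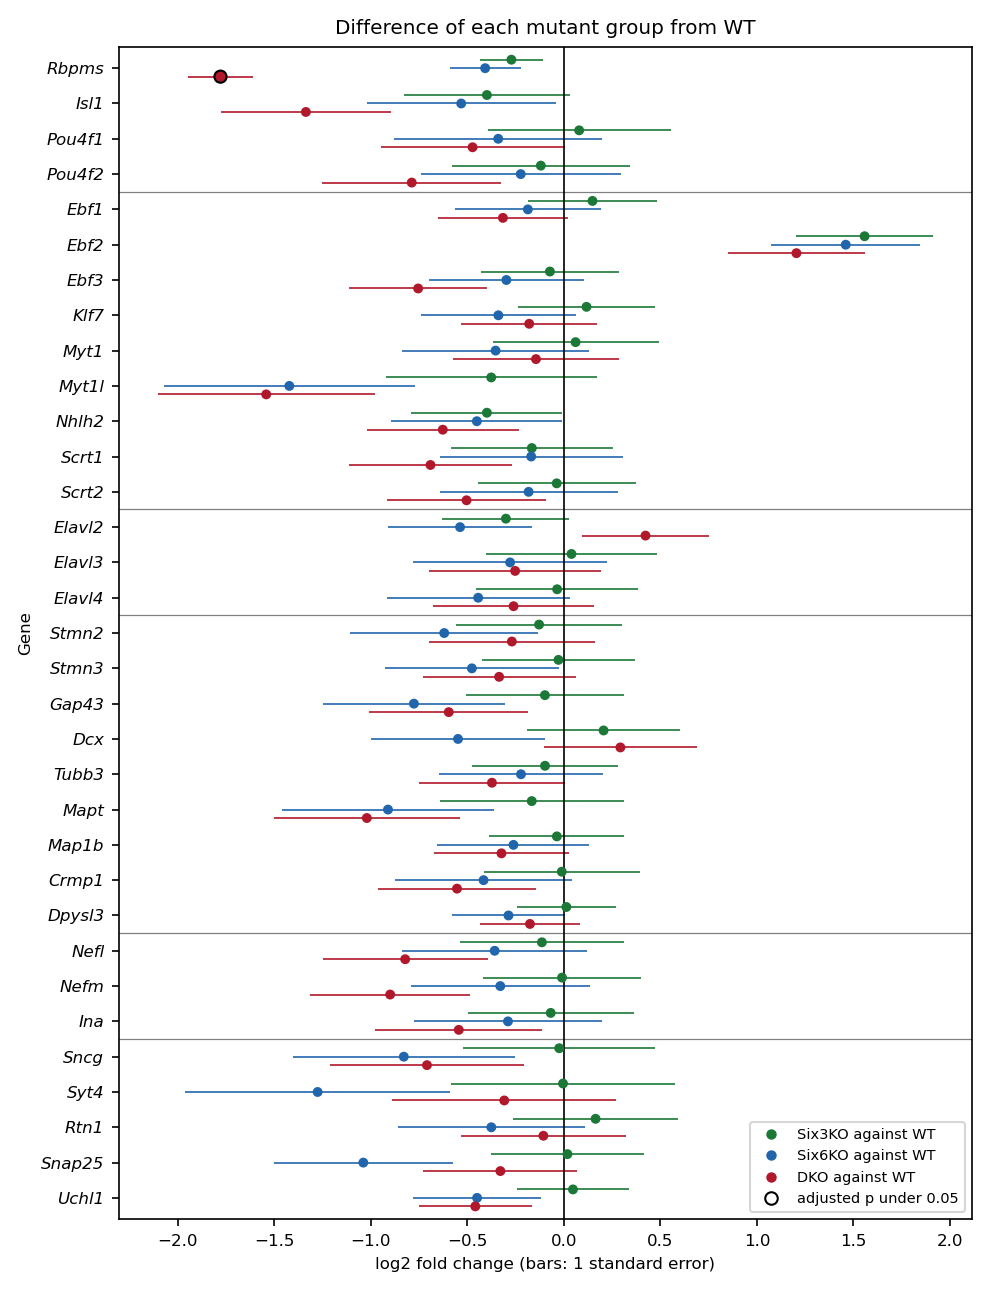
Difference from WT on the log2 scale (horizontal axis, with whiskers of 1 standard error) for 33 members (vertical axis, by role group; Thy1, with almost no reads, left out) in Six3KO, Six6KO and DKO, which share the WT libraries. Rbpms in DKO (-1.78) is the 1 outlined point, passing the threshold, and Ebf2 lies above 1 in all 3 groups.

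Six3KO moved no member past the threshold. In Six3KO against WT edgeR called 0 of 34 members and 0.00752% of all genes, with no member lower and 1 higher, Ebf2, at an unadjusted p under 0.05 (1.2% and 2.29% of all genes) and the same gene called by DESeq2. Estimates were below 0 for 23 of 34 members, against 51.4% of all genes. The members' median was -0.04, but it depended on the library: it was 0.27 without rh026, with 5 of 33 tested members below 0, and 0.21 without WT rh023. In rh006 and rh012, 3 members each lay below the WT mean, against 32 in rh026.

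Six6KO had 33 of 34 estimates below 0, where 48.5% of all genes lay below 0, and no call. In Six6KO against WT edgeR called 0 members and 0% of all genes, DESeq2 0 members, and the 1 member at an unadjusted p under 0.05 was again Ebf2 (2.26% of all genes were higher and 1.63% lower). The members' median was -0.39, and without rh020 it was -0.04, with 18 of 34 below 0. The remaining Six6KO library, rh007, had 15 of 34 members below the WT mean.

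Set against Six3KO, DKO had 32 of 34 members below 0 (median -0.47; 47.5% of all genes lay below 0), and the median was -0.73 without rh026 and rh020. Dcx and Elavl2 were the 2 members above 0. Set against Six6KO, 20 of 34 lay below 0 (median -0.11; 53.1% of all genes), and the direction turned on which Six6KO library was used. Without rh020 there were 28 below 0 (median -0.48), and without rh007 there were 5 (median 0.62). With the mesenchyme covariate the median was -0.997 against Six6KO, with 31 of 34 below 0, and -1.09 against Six3KO, with 32 of 34 below 0. Snap25, Syt4, Dcx and Elavl2 lay higher in all DKO libraries than in both Six6KO libraries, Rbpms and Nefm lower, and 16.8% and 18.6% of all genes did so in these directions.

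Of 30 other genes of the ganglion cell pathway, 29 were in the table and tested. In DKO against WT 1 passed, with a lower level (0.639% of all genes passed downward). Shh, the signal that newborn ganglion cells send back to progenitors, had 38, 55 and 18 reads in WT and 0, 2 and 3 in DKO (2.97, 6.36 and 2.29 against 0, 0.166 and 0.238 CPM). The difference was -4.73 ± 0.82 (edgeR adjusted p = 0.0307) at these low counts, and its exons overlap 2 noncoding genes on the other strand. The call was lost in 5 of 6 analyses that left out 1 library, without DKO rh010 or rh011 and without any 1 WT library (adjusted p = 0.0567 to 0.152). Shh held 0.912, 0.768 and 0.605 CPM in Six3KO and 2.32 and 0.642 CPM in Six6KO.

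Upstream of the ganglion cell factors, Atoh7 held 99.2, 121 and 98.9 CPM in WT and 71.4, 56.9 and 125 CPM in DKO. Its DKO libraries spanned the WT range, and the difference was -0.33 ± 0.40 (edgeR adjusted p = 0.847). The axon guidance receptor Robo2 was at -0.95 ± 0.32 (232, 295 and 185 CPM in WT, 98.4, 124 and 146 CPM in DKO; adjusted p = 0.226). DESeq2 called Robo2 (adjusted p = 0.0457), as did the fit with the mesenchyme covariate, which extrapolates for DKO (-1.54, adjusted p = 0.0491). Irx2, an Iroquois homeobox factor of ganglion cells, was at -1.16 ± 0.40 (adjusted p = 0.236). Rbpms2, the paralog of Rbpms, was at -0.53 ± 0.23 (edgeR adjusted p = 0.381), a smaller difference than that of Rbpms. Over the 29 genes, 18 had estimates below 0, against 50.8% of all genes, and the median was -0.35. The list also held genes with estimates above 0, named after their values were seen. Nhlh1, a bHLH factor of newborn neurons, held 11.2, 23.9 and 15.3 CPM in WT and 32.9, 36.4 and 30.4 CPM in DKO, without overlap (0.99 ± 0.49, edgeR adjusted p = 0.449). The proneural factors Neurod1 (0.60 ± 0.39, adjusted p = 0.611) and Neurog2 (0.35 ± 0.36, adjusted p = 0.801) did not pass either. Of this list, Nhlh1, Sox4 and Insm1 were higher in DKO than in WT without overlap (9.03% of genes tested). Shh, Robo2, Irx2, Rbpms2, Cntn2, Chrna3 and Dll3 were lower without overlap (8.46%). Markers of other retinal neurons also had lower estimates in DKO. For amacrine and horizontal cells, 7 of 10 listed markers were tested. All 7 lay below WT without overlap (8.46% of all genes; median -2.93), summing to 37.7 to 75.2 CPM against 207 to 400 CPM. In edgeR 0 passed (0.639% of all genes passed downward), and 7 were lower at an unadjusted p under 0.05 (7.53% of all genes). For photoreceptor precursors, 8 of 9 listed markers were tested, and 7 had estimates below 0 (median -1.77). Of these 2 passed, Otx2 and Gnb3, both lower (0.639% of all genes). Otx2, a homeobox factor of photoreceptor precursors, fell by 1.77 ± 0.14 on the log2 scale (edgeR adjusted p = 0.00107). The exception was the abundant Rorb, at 0.09 ± 0.40, which makes up most of the summed level of that list.

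Markers of neurons and glia outside the retina were also measured. Of 10 peripheral sensory neuron markers 3 were in the table, with a sum of 4.71 to 9.61 CPM in WT, 9.31 to 18.0 in Six3KO, 16.0 to 23.9 in Six6KO and 6.10 to 8.53 in DKO, and none of the 3 was without reads in any group. Of 7 markers of peripheral nerve glia 5 were in the table, with a sum of 12.4 to 35.4 CPM in WT, 14.0 to 44.1 in Six3KO, 31.4 to 61.9 in Six6KO and 15.3 to 23.0 in DKO. The part of neurons outside the retina in the members' levels was not tested. Per kilobase of exon, Tubb3 was the most abundant member in WT (393 CPM per kb) and Thy1 the least (0.604), with Rbpms at position 30 of 34 (6.76, between Pou4f1 at 7.75 and Klf7 at 5.57, whose ranges overlap its own). Pou4f2 and Isl1 were at positions 12 and 13 (49.6 and 45.8 CPM per kb), with overlapping ranges.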

How the data were processed

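Raw read counts by gene symbol were deposited by the authors in 1 table with a column for each library. Per the submitters' processing notes, the tools were Trim Galore 0.3.7, TopHat2 2.0.13, HTSeq 0.6.1, Cufflinks 2.2.1 and Cuffdiff, with build mm10. The annotation and strand setting were not given in the sources used here. Columns name the group and a library (such as rh016) but no replicate. Counts were fitted in R 4.3.3 with edgeR 4.0.16 (filterByExpr, minimum count 10; TMM; robust quasi-likelihood fit of all 11 libraries with 4 group means; Benjamini-Hochberg over 13292 genes). The standard error is the log2 fold change divided by the square root of F. Log2 CPM used a prior count of 2. Every pair of libraries of a group differed beyond counting error (chi-square 9.72 to 77.3 per degree of freedom). Positions are from GENCODE vM21, in which all 34 members matched 1 gene and 10 share exon bases with another gene.

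On data simulated for DKO against WT (13188 to 13197 genes), 43% of 2-fold and 80% of 4-fold changes were recovered, with 5 to 8 false calls. Members and lists were chosen with earlier results of these data known. Given per library were Rbpms, the ganglion cell factors, called members, and the 2 members of each other role group of smallest p in DKO against WT. Atoh7 and the 3 context genes with the smallest p were also named, and further genes were chosen after their values were seen. Alternatives were relative log expression factors, no scaling factor, no filter, DESeq2 1.42.0, only the groups compared, each library left out, rh026 and rh020 left out, and a mesenchyme score covariate (mean log2 CPM of the 15 markers).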

Additional observations from a re-analysis of the deposited data

How the results depend on the processing

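Of 80 recomputed counts of members called, 68 stayed within 1.5 times the first count. That first count was 0 for Six3KO against WT, Six6KO against WT and the departure from the sum, and 1 for the others. The 68 therefore include counts that stayed at 0 and say little on stability. In DKO against WT, 1 member (Rbpms) became 3 with DESeq2 and 2 without rh026 and rh020 or with the mesenchyme covariate, and remained 1 in each analysis that left out 1 library (1 to 1). In Six3KO against WT and in the test of the departure from the sum, 0 became 1 with DESeq2. In DKO against Six6KO, 1 became 2 on those groups alone and 0 without rh026 and rh020 or with the covariate, and ranged from 0 to 1 with 1 library left out. Of the named genes, 2 estimates turned sign in DKO against WT: Elavl2 (-0.20) with the covariate and Elavl4 (0.033) without WT rh023, the latter running from -0.45 to 0.033 with 1 library left out. The cause was not tested. Over all genes, calls ran from 20 to 773 in DKO against WT (172 in the first fit), 16 to 774 in DKO against Six3KO (78), 1 to 682 in DKO against Six6KO (31), 1 to 19 in Six3KO against WT (1), 0 to 10 in Six6KO against WT (0) and 0 to 241 for the departure (0). Other scalings moved the median of all genes by less than 0.1. No paired analysis was possible because the columns carry library names and no replicate numbers, so the planned replicate block was not run. Simulated 2-fold changes in genes picked at random were recovered in 43% of cases, so differences of that size in members that did not pass could be missed. The simulation drew each gene independently, whereas the members moved together between libraries. The 43% is therefore not the rate for these members.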
